A study of Mus musculus with 143 samples.

Results

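The genes described are 31 protein-coding genes of the contractile and energy machinery of skeletal muscle, measured in tumours grown under the skin of the mouse flank. They were chosen by symbol, and all 31 symbols listed were found among the 54232 gene identifiers of the deposited table. The rule uses symbols and no measured value, but the symbols were listed with earlier results of these data known. The genes lie on 10 chromosomes.

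Skeletal muscle fibres contract when thick filaments of myosin pull on thin filaments of actin. Calcium released from an internal store binds the troponin complex on the thin filament and switches contraction on, and a calcium pump then refills the store. Fast and slow fibres use different copies of the myosin and troponin genes, and creatine kinase and myoglobin serve the fibre's energy and oxygen supply. In mice a thin sheet of striated muscle, the panniculus carnosus, lies under the skin of the trunk, above the muscle of the body wall.

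Total RNA was sequenced from subcutaneous tumours of 11 syngeneic models, mouse tumour lines implanted in mice with a working immune system. Each model gave 5 tumours from mice given muDX400, a mouse antibody against PD-1, 5 from mice given the mIgG1 isotype control, and 3 untreated baseline tumours. Cells were injected subcutaneously in the right lower flank in 0.1 mL of medium. Antibody was given on days 11 and 15 after implantation and these tumours were excised on day 19. The labels class CM3, MBT2 and MC38 as High responders to PD-1 blockade, CT26, EMT6, MB49 and RENCA as Partial, and 4T1, B16F10, LL2 and TC1 as Resistant. The labels used here give no host strain, age or sex, no day of excision for the baseline tumours, and no statement of how much adjoining tissue was taken with a tumour. Libraries are named by model, arm and replicate number.

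Levels are FPKM, fragment counts divided by transcript length and by the size of the library, so levels of different genes can be set side by side. Estimated depth ran from 11.4 to 49.5 M (mega) fragments, with a median of 20.7 M. At that depth a single fragment of Tcap, a short gene with 1 annotated transcript, corresponded to 0.0213 to 0.0929 FPKM. Every library was closest, by correlation over all genes, to one of the same model. CM3 isotype 2 and 3 stood apart in their FPKM totals, at 784467 and 885333, against 507254 to 531146 in the other 8 CM3 antibody libraries. No other library of the series was over 700000. Results that rest on these 2 libraries are given with and without them, a choice made after seeing the data.

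The promoters of 3 genes whose transcripts varied together across the libraries, with correlations given further on, are shown for their shared letters. Acta1 encodes skeletal muscle alpha-actin, Ckm the muscle creatine kinase and Myh4 the myosin heavy chain of fast IIB fibres. Each sequence is the RefSeq window from 250 bases before to 50 bases after the start of transcription, 5′ to 3′ on the gene's strand, in build GRCm38.p6. Capitals mark the letters CAGCTG, a form of the E-box bound by the MyoD family of muscle regulators, and the CArG box, which serum response factor binds. The windows are chr8:123894726-123895025 on the minus strand for Acta1, chr7:19410844-19411143 on the plus strand for Ckm and chr11:67237562-67237861 on the plus strand for Myh4.
Acta1: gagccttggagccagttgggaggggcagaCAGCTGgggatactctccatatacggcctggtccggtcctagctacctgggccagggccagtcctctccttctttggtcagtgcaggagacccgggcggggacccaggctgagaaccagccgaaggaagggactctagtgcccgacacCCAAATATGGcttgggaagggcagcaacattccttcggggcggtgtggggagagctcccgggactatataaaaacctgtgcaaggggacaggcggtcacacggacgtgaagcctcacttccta
Ckm: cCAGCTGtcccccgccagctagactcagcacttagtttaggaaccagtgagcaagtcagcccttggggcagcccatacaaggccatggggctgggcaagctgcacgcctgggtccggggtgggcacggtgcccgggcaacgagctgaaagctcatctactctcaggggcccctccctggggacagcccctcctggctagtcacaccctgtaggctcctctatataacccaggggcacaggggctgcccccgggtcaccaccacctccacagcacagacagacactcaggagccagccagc
Myh4: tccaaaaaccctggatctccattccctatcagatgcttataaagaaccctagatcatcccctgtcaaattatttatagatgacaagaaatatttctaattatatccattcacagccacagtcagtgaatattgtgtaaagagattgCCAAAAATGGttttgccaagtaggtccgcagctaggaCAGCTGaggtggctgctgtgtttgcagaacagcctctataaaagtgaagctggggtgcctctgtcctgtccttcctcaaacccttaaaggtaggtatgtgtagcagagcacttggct
The letters CAGCTG, which read the same on both strands, occurred in a window of 12 of the 25 genes that could be matched to this table and in 16.3% of all 32817 promoter windows of the same length. A CArG box on either strand occurred in windows of 2 of the 25, Acta1 and Myh4, and in 1.63% of all windows. The letters TATAAA on either strand occurred in windows of 8 of the 25 and in 13.6% of all windows. The looser E-box CANNTG, which includes CAGCTG, occurred in windows of 22 of the 25 and in 72.3% of all windows. A match is a description of the letters only.

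To rank libraries, a core score was taken as the mean of log2(FPKM + 1) over 8 genes: Acta1, Ckm, Mylpf, Tnnt3, Tnni2, Tnnc2, Atp2a1 and Actn3. Most tumours held little muscle RNA. The median core score was 0.747 over all libraries, with a range of 0.312 to 7.23. In 31 libraries every core gene reached 1 FPKM, and in 5 of these every core gene reached 10 FPKM. No library had all 8 at 100 FPKM. The 31 libraries comprised 12 of 55 muDX400, 10 of 55 isotype and 9 of 33 baseline tumours, and came from 10 of 11 models. CT26 had none.

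In the muDX400 arm these libraries were 4T1 replicate 1, B16F10 replicate 4, CM3 replicates 3 and 4, EMT6 replicate 4, LL2 replicates 2 and 3, MB49 replicate 5, MC38 replicate 5, RENCA replicate 5, and TC1 replicates 3 and 5. In the isotype arm they were 4T1 replicates 3, 4 and 5, CM3 replicate 4, MBT2 replicates 1, 4 and 5, RENCA replicate 3, and TC1 replicates 3 and 4. In the baseline arm they were MB49 replicates 1 and 2, MBT2 replicate 1, MC38 replicates 1 and 2, RENCA replicates 1 and 2, and TC1 replicates 2 and 3. Such libraries sat beside others of the same model and arm with scarcely any muscle RNA. In bulk tumour RNA, fewer muscle cells and less RNA per muscle cell cannot be told apart.

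The threshold of 1 FPKM cuts a continuous range. Just inside it, the lowest core gene stood at 1.023 FPKM in MBT2 baseline 1 and at 1.21 FPKM in 4T1 isotype 3. Just outside it, the lowest core gene stood at 0.993 FPKM in LL2 muDX400 5 and at 0.843 FPKM in 4T1 muDX400 3. By arm the median core score was 0.767 in muDX400 libraries (0.374 to 5.08), 0.651 in isotype libraries (0.312 to 7.23) and 1.44 in baseline libraries (0.422 to 6.04). The 3 ranges overlapped almost throughout.

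**Figure D1:**
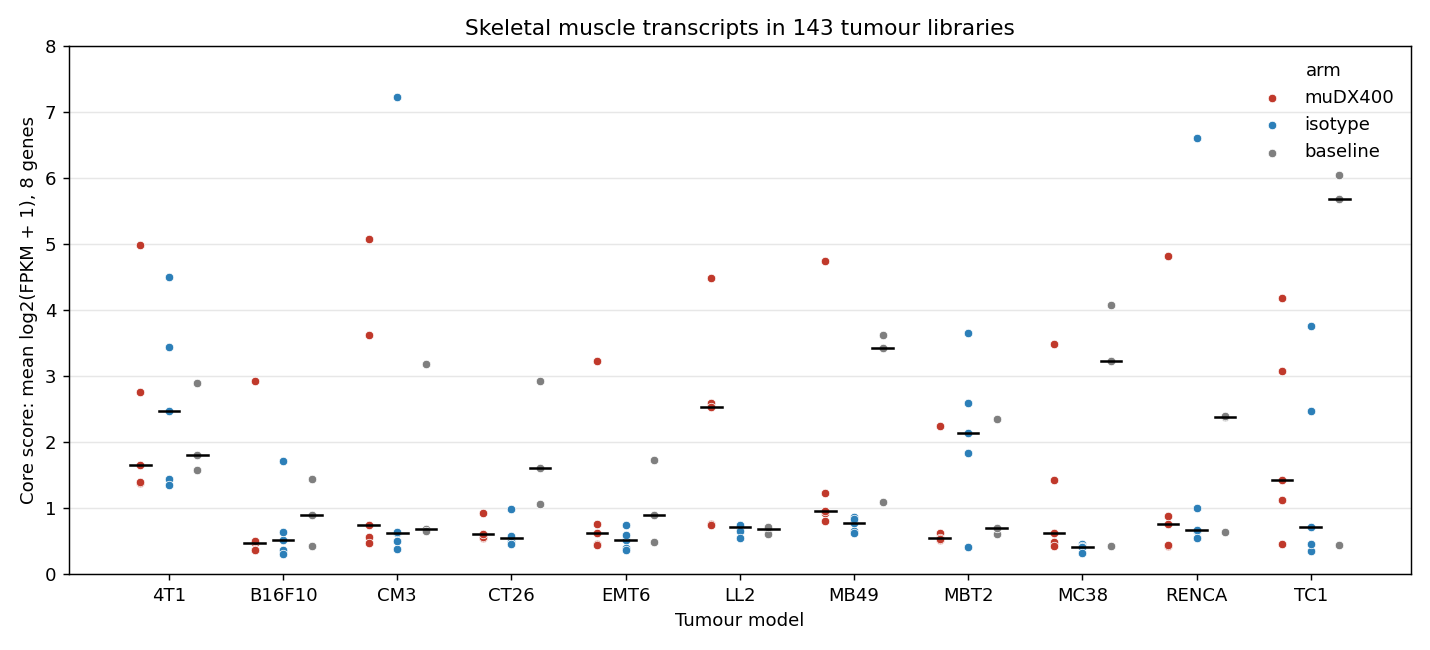
Core score (mean log2(FPKM + 1) over 8 skeletal muscle genes) of every tumour library, by model, with muDX400, isotype and baseline side by side; each point is a library and each black bar a group median. Single libraries stand far above the rest of their group, up to 7.23 in CM3 isotype 4, while the median over all libraries is 0.747.

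The highest level of any member was that of Acta1. It reached 405 FPKM in CM3 isotype 4, against 0.0935 to 0.4999 FPKM in the other 4 CM3 isotype tumours. It reached 298.5 FPKM in RENCA isotype 3, against 0.227 to 1.65 FPKM in the other 4 of that group. In the baseline tumours of TC1 it stood at 0.104, 193 and 123 FPKM in replicates 1, 2 and 3. So 1 library of 5 in each isotype group, and 2 of 3 in the TC1 baseline group, held nearly all of the group's Acta1.

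Ckm, which regenerates ATP from phosphocreatine, followed in the same libraries. It stood at 196 FPKM in CM3 isotype 4 and 200.5 FPKM in RENCA isotype 3, where the other libraries of those groups stood at 0.209 to 0.627 and 0.862 to 2.03 FPKM. In TC1 baseline tumours it was 0.102, 116 and 86.6 FPKM. Over the 31 libraries the ratio of Acta1 to Ckm FPKM had a median of 1.66 and ran from 1.14 in TC1 isotype 3 to 6.98 in MBT2 isotype 1.

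CM3 isotype 4 was the highest library for 7 of the 8 core genes and for most other members. Its calcium genes included Atp2a1, the fast calcium pump, at 132.5 FPKM, Pvalb, the calcium buffer of fast fibres, at 120.8 FPKM, and Casq1, which stores calcium, at 23.4 FPKM. Of the fast troponins, Tnnt3 was at 178 FPKM, Tnnc2 at 160.4 FPKM and Tnni2 at 123 FPKM there. The light chains Mylpf and Myl1 were at 141.5 and 98.9 FPKM. The 31 genes together summed to 2069 FPKM in this library, 0.394% of its FPKM total, against a median share of 0.0171% over all libraries.

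The large structural genes stayed low even there. Ttn, which encodes titin, the spring that spans the sarcomere, stood at 1.99 FPKM in CM3 isotype 4 and under 1 FPKM in every other library. Neb, which encodes nebulin, the ruler of the thin filament, stood at 12.2 FPKM, and Ryr1, the calcium release channel, at 4.81 FPKM. At the Z disc, Actn3 was at 47.2 FPKM, Tcap, which caps titin, at 42.6 FPKM, Myot at 7.03 FPKM and Xirp2, a protein of muscle attachment sites, at 2.30 FPKM. Actn3 is the alpha-actinin of fast fibres.

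**Figure D2:**
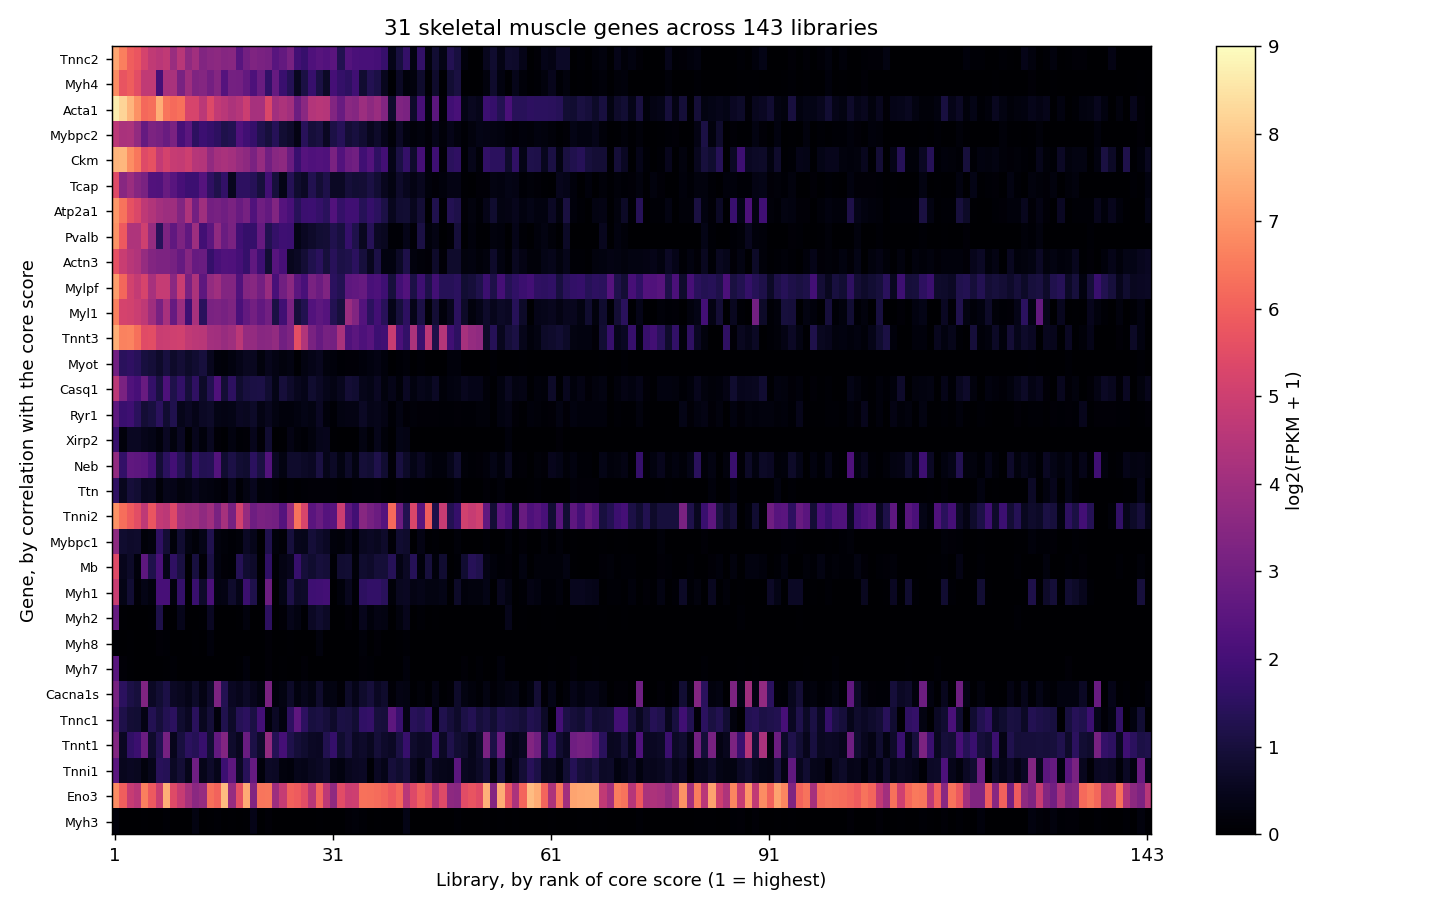
Level of each of 31 skeletal muscle genes, as log2(FPKM + 1) on the colour scale, in all libraries ordered from highest to lowest core score; genes run from the highest correlation with the score at the top to the lowest at the bottom. The upper rows fade together from left to right, while Eno3, second from the bottom, is bright in every library.

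Across all libraries, 9 members had a Pearson correlation of at least 0.9 with the core score, 15 of at least 0.8 and 22 of at least 0.5. These are descriptions: the 8 core genes are part of the score, and libraries share models and depth. Outside the core the closest were Myh4 at 0.958, Mybpc2, the myosin-binding protein of fast fibres, at 0.947, Tcap at 0.941, Pvalb at 0.933, Myl1 at 0.89 and Myot at 0.879. The correlation held within models too: for Myh4 it ran from 0.918 to 0.999 over the 11 models.

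The fibre-type genes differed between libraries. In the 31 libraries Myh4 made up a median of 93.4% of the summed FPKM of the 4 adult heavy chain genes Myh4, Myh1, Myh2 and Myh7. Myh1, the chain of IIX fibres, had a median of 6.604% and Myh2, the chain of IIA fibres, 0.138%. Myh7, the chain of slow fibres, had a median of 0.0979% and reached 1 FPKM in 1 library only, CM3 isotype 4, at 4.42 FPKM. Myh3 and Myh8, the embryonic and perinatal chains, stayed under 1 FPKM in every library. The genes Myh3, Myh2, Myh1, Myh4 and Myh8, in that order, adjoin each other on chromosome 11 (67078300 to 67308634, GRCm38). They are close copies that can share fragments, so the split between them is uncertain.

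The libraries fell along a range from nearly pure Myh4 to mostly Myh1. Myh4 took 99.2% in RENCA isotype 3, where Myh4 was at 51.4 FPKM and Myh1 at 0.278 FPKM. It took 98.6% and 99.8% in TC1 baseline 2 and 3. By contrast Myh1 took 59.9% in MBT2 isotype 4, 59.3% in MBT2 isotype 1 and 60.1% in MBT2 baseline 1, with Myh2 adding 15.98%, 7.46% and 12.3%. These 3 libraries had 3.11 to 4.68 FPKM of heavy chain in all, so their shares rest on fewer fragments than those of RENCA isotype 3. Myh1 was also present in MBT2 without the rest, at 0.3975 to 3.42 FPKM in all 13 libraries, while Myh4 fell to 0 there. MC38 had it too, at 0.521 to 2.39 FPKM, with Myh4 down to 0. The part of these model levels in the shares was not tested.

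RENCA muDX400 5 held a different mixture. Its Acta1 was at 174.6 FPKM and its Ckm at 25.9 FPKM, but Myh4 was at 3.02, Myh1 at 3.11 and Myh2 at 1.24 FPKM. The skin list was also at its highest of all libraries there, with a mean log2(FPKM + 1) of 3.04 against a median of 0.488. Its Krt5, a keratin of basal skin cells, was at 22.2 FPKM. Desmin (Des) at 62.0 FPKM and Myog, a regulator of muscle differentiation, at 2.11 FPKM were likewise at their highest in that library. The part of skin in its muscle values was not tested.

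**Figure D3:**
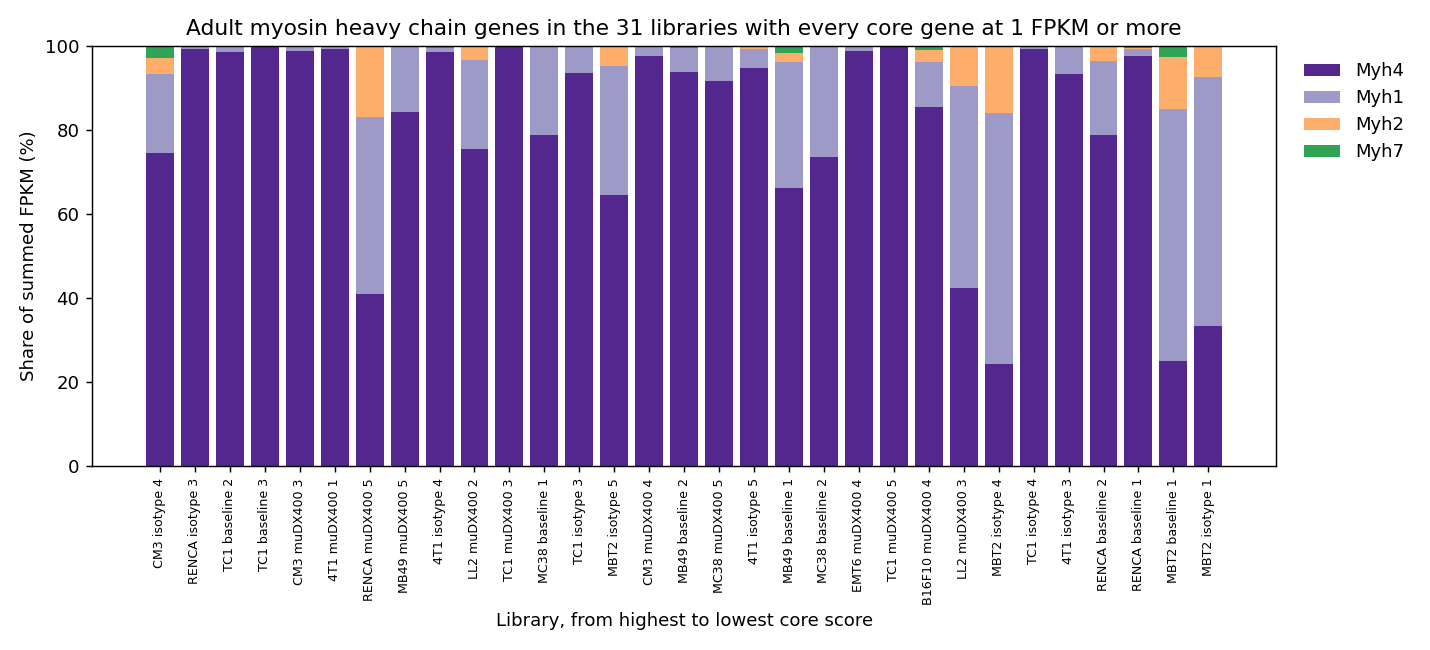
Share of each adult myosin heavy chain gene in the summed FPKM of Myh4, Myh1, Myh2 and Myh7 (percent, stacked bars from 0 to 100) in the 31 libraries with every core gene at 1 FPKM or more, ordered from highest to lowest core score. Myh4 fills 93.4% of the median bar, and Myh1 with Myh2 fill most of it in RENCA muDX400 5, LL2 muDX400 3 and 3 MBT2 libraries.

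The slow partners of the core troponins were low in most of the libraries rich in fast ones. The ratio of Tnni2, the fast troponin I, to Tnni1, the slow one, had a median of 19.6 over the 31 libraries. It ran from 1.18 in MC38 baseline 2 to 176 in RENCA isotype 3. Both genes also had levels that went with the tumour model, Tnni2 in 4T1 and Tnni1 in MC38, as given further on. CM3 isotype 4 differed in also holding slow and oxidative genes: Tnni1 at 4.58, Tnnc1, the troponin C of slow fibres and heart, at 5.78, Mybpc1, the slow myosin-binding protein, at 11.3 and Mb, myoglobin, at 42.3 FPKM. In RENCA isotype 3 the same genes were at 0.430, 1.25, 0.745 and 0.384 FPKM. The slow and heart light chains Myl2 and Myl3 reached 1 FPKM in CM3 isotype 4 alone, at 6.45 and 3.41 FPKM.

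There were 6 members with correlations under 0.3 with the core score over all libraries: Myh3, Tnnt1, Tnni1, Tnnc1, Eno3 and Cacna1s. Apart from Myh3, which stayed near 0, these were present without the rest, at levels that went with the tumour model. In some models they also rose with the core score. Within models the correlation had a mean of 0.560 for Cacna1s (-0.088 to 0.888) and 0.362 for Eno3 (-0.270 to 0.915). The means were 0.259 for Tnnt1, 0.220 for Tnnc1 and 0.187 for Tnni1. Eno3, the muscle form of the glycolytic enzyme enolase, stood at 6.99 to 212 FPKM and was above 1 FPKM in every library. Its model medians ran from 9.31 FPKM in MC38 to 167 FPKM in MB49. The 13 MB49 libraries stood at 152 to 212 FPKM, above every library of the other models.

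Model levels also reached into the core. In 4T1, Tnni2 stood at 28.1 to 82.3 FPKM and Tnnt3 at 11.8 to 46.2 FPKM in all 13 libraries, also where Acta1 and Ckm were under 1 FPKM. In 4T1 isotype 1, for example, Tnnt3 was at 21.1 FPKM while Acta1 was at 0.0874 FPKM. Model medians of Tnni2 in the other 10 models were 0.246 to 6.07 FPKM. The lowest core score in 4T1 was 1.36, above the median of every isotype group except 4T1 and MBT2.

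CM3 had a set of its own. Its median was 8.20 FPKM for Cacna1s, the voltage sensor that opens the calcium release channel, against at most 0.690 FPKM in the other models. Neb had a median of 2.69 FPKM, Atp2a1 2.39 FPKM and Tnnt1, the slow troponin T, 7.85 FPKM there. MB49 stood next for Tnnt1 at 7.26 FPKM, with overlapping ranges (3.19 to 21.7 FPKM in CM3 and 4.91 to 9.47 FPKM in MB49).

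In MC38 the slow troponin I Tnni1 stood at 3.59 to 9.59 FPKM in all 13 libraries, with a median of 5.60 FPKM against at most 1.12 FPKM in other models. Myl1 had its highest model median, 2.995 FPKM, in RENCA, Mylpf 3.77 FPKM in LL2, Tnnc1 2.62 FPKM in EMT6 and Mb 1.38 FPKM in 4T1. These levels are descriptions, with no test between models.

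**Figure D4:**
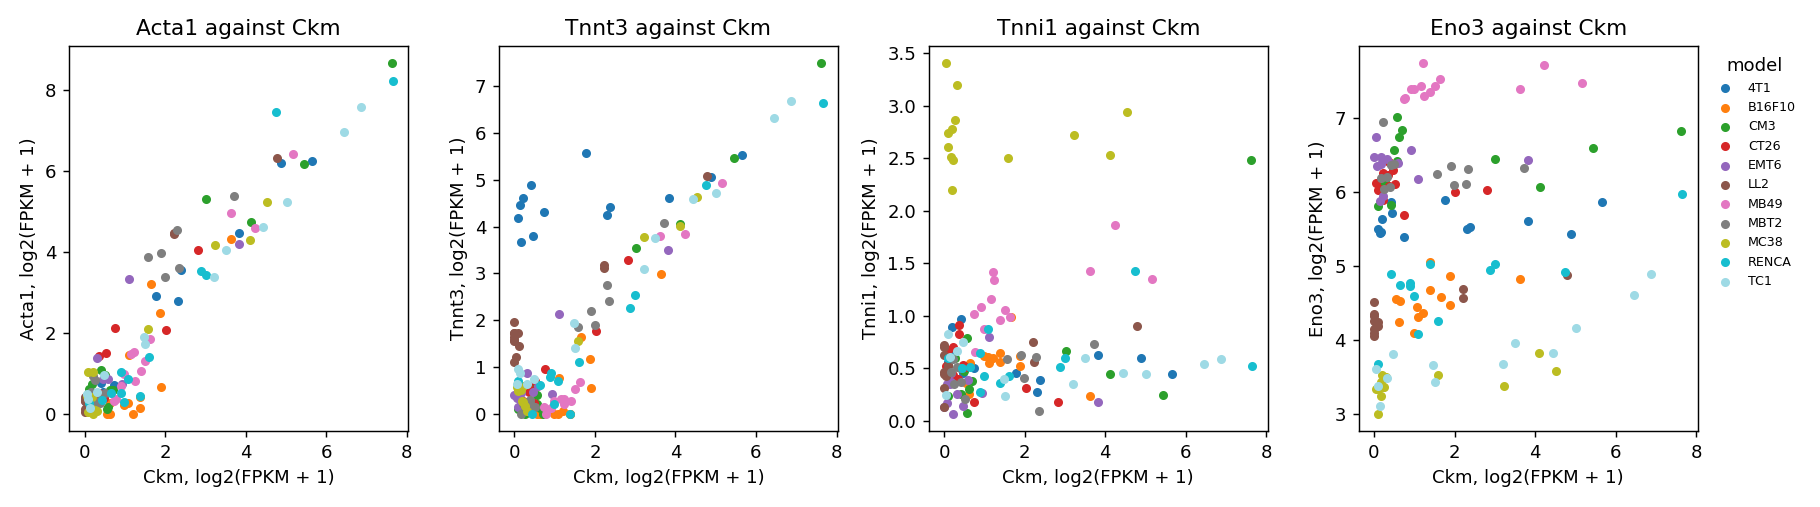
Acta1, Tnnt3, Tnni1 and Eno3 (vertical axes) against Ckm (horizontal axis) in all libraries, both as log2(FPKM + 1), coloured by model. Acta1 rises with Ckm, Tnnt3 does so except for a raised row of 4T1 libraries, Tnni1 is raised in MC38 at any Ckm level, and Eno3 lies in bands by model.

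The 10 genes outside the 31 whose levels were most like the core score, over all libraries, were Klhl41 (r = 0.876), Myoz1 (0.872), Ldb3 (0.871), Hfe2 (0.864), Pdlim3 (0.861), Ampd1 (0.857), Nrap (0.841), Eef1a2 (0.821), Cacng1 (0.809) and Pygm (0.806). Klhl41 is a sarcomere assembly factor, Myoz1 and Ldb3 are Z disc proteins, Ampd1 is the muscle AMP deaminase and Pygm the muscle glycogen phosphorylase. Within models their mean correlation ran from 0.694 for Cacng1 to 0.944 for Eef1a2.

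Of 46 other skeletal muscle genes, 10 had a correlation of at least 0.8 with the core score, and the mean over all 46 had a correlation of 0.742. Not all followed: Trim63, a muscle ubiquitin ligase, peaked at 88.8 FPKM in CM3 isotype 3, where Acta1 was at 0.0935 FPKM and the FPKM total was raised. The list means for other tissues followed less closely: 0.323 for 12 myogenic regulators and satellite cell genes, 0.248 for 11 skin genes, 0.169 for 8 heart genes, 0.151 for 10 adipocyte genes, 0.0813 for 9 smooth muscle genes and 0.0417 for 6 peripheral nerve genes. No gene of these other lists reached 0.8. The heart chain Myh6 stayed at or under 0.329 FPKM in every library, and Pax7, which marks satellite cells, at or under 0.0312 FPKM.

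Beside the muscle genes, TC1 baseline 2 also had an adipocyte mean of 4.12, against 1.48 and 2.65 in the other TC1 baseline tumours. In CM3 isotype 4 the adipocyte mean of 4.47 lay within the 3.37 to 4.69 of the other 4 tumours of its group, as did its skin and heart means. Its smooth muscle mean of 2.16 lay above their 1.37 to 1.69, its myogenic mean of 0.490 above their 0.249 to 0.354, and its nerve mean of 3.49 below their 3.72 to 3.86. The part of these tissues in the muscle values was not tested.

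The first comparison asked whether PD-1 blockade went with a different level of these genes. Libraries were compared within each model, 5 muDX400 against 5 isotype, with limma on log2(FPKM + 1) and Benjamini-Hochberg adjustment over all genes tested at a threshold of 0.05. Between 2 and 12 of the 31 members per model passed the filter of 1 FPKM in at least 5 of 10 libraries. A member can pass it through a single arm, so the counts describe only those that passed.

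No member was called in any of the 11 models. Of all genes tested, limma called 0% in 4T1, B16F10, CM3, EMT6, LL2, MB49 and MBT2, 0.0802% in TC1, 0.339% in CT26, 2.57% in RENCA and 27.3% in MC38. At an unadjusted p under 0.05 there were 5 of 11 members in MBT2, where 28.7% of all genes were, 4 of 4 in LL2 (16.6%), 2 of 6 in CM3 (26.6%) and 2 of 5 in MC38 (42.02%). There was 1 of 8 in MB49 (10.05%), 1 of 9 in TC1 (6.55%) and 0 in the other 5 models (3.07% to 19.2%).

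In LL2, muDX400 tumours had more muscle RNA in 3 of 5 libraries. Acta1 stood at 0.237, 79.6, 20.6, 0.324 and 21.3 FPKM in muDX400 tumours and at 0.257, 0.270, 0.150, 0.292 and 0.0855 FPKM in isotype tumours. Tnnt3 stood at 2.33, 32.8, 8.03, 2.32 and 7.61 FPKM in muDX400 tumours, against 2.89, 2.11, 2.33, 1.92 and 1.15 FPKM in isotype tumours. The arms overlapped for both genes. The log2 difference of Tnnt3 was 1.37 ± 0.51 (SE, n = 5 each), with an adjusted p of 0.272 by limma.

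In MBT2 the difference lay the other way. Acta1 stood at 11.2, 0.787, 0.435, 0.448 and 0.316 FPKM in muDX400 tumours and at 13.8, 9.44, 0.208, 22.5 and 41.0 FPKM in isotype tumours. Its log2 difference was -2.32 ± 0.90 (SE, n = 5 each; limma, adjusted p = 0.125). Tnnc2, the fast troponin C, stood at 3.27, 0, 0.0692, 0 and 0 FPKM in muDX400 tumours, against 3.09, 2.35, 0.0882, 4.29 and 10.5 FPKM in isotype tumours. Here 4 isotype tumours and 1 muDX400 tumour were high, and the arms overlapped.

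In MC38 all 5 muDX400 tumours had more Acta1 than all 5 isotype tumours, a gene and model picked here after their values were seen. The muDX400 tumours stood at 1.04, 1.06, 3.30, 0.342 and 18.7 FPKM, against 0.0653, 0.0296, 0.0544, 0 and 0.0873 FPKM in isotype tumours. Acta1 reached 1 FPKM in too few MC38 libraries to be tested, and 27.3% of the genes tested were called in this model. Of the lists, 7 of 9 adipocyte genes tested rose in MC38, with a median log2 difference of 2.33, as did 3 of 4 smooth muscle genes, 2 of 6 nerve genes, 1 of 3 heart genes and 2 of 5 other skeletal muscle genes, while Smtn and Tnnt2 fell. The 2 genes of that last list were Des at 1.22 and Asb2 at 1.12 (limma, adjusted p = 0.00463 and 0.00537). Asb2 did not follow the core score, with a correlation of -0.035, and reached 1 FPKM in 92 libraries. Des had a correlation of 0.613 and reached 1 FPKM in 126 libraries. The part of these tissues in the Acta1 values was not tested. In MB49 the muDX400 tumours stood at 2.60, 1.80, 0.961, 1.90 and 84.4 FPKM of Acta1, against 0.287, 0.615, 0.767, 1.10 and 0.239 FPKM in isotype tumours. There only replicate 3 of the muDX400 arm lay within the isotype range.

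As the mean of the 11 within-model differences, 0 of the 24 members tested were called, where 23.1% of the 16187 genes tested were. None of the 24 had an unadjusted p under 0.05, where 34.8% of all genes did. The largest mean difference was that of Acta1, 0.50 ± 0.38 on the log2 scale (SE; limma, adjusted p = 0.358), and the lowest adjusted p was 0.318, for Tnnc1. A further fit left out the libraries in which every core gene reached 10 FPKM, a choice made after seeing the data. In this comparison these were 2 isotype libraries and 1 muDX400 library, picked by levels that include those of Tnni2. Tnni2 alone was then called, at 0.44 ± 0.16 (SE). That call is no test of Tnni2, since its own level helped to set which libraries stayed. Of the 46 other skeletal muscle genes, 22 were tested over all 110 antibody libraries and 2 rose, Cox8b by 0.36 and Dmd by 0.17 on the log2 scale (limma, adjusted p = 0.0177 and 0.00323). Cox8b, a cytochrome oxidase subunit of muscle, is also active in brown fat, and all 10 adipocyte genes rose in the same fit, with a median log2 difference of 0.69. Of the other lists, 5 of 7 smooth muscle, 2 of 7 skin, 1 of 4 heart and 1 of 6 nerve genes rose, and 1 smooth muscle, 1 heart and 1 of 3 myogenic genes fell. With median-ratio scaling the smooth muscle gene, Smtn, was not called. The part of these tissues in the muscle values was not tested.

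The muDX400 effect differed between models, by limma's moderated F test on 10 interaction contrasts, for 4 of 24 members, against 32.4% of all genes tested. These were Tnnt1 (adjusted p = 4.54e-06), Eno3 (0.0326), Tnni1 (0.0406) and Tnnc1 (0.0451). All were among the members with correlations under 0.3 with the core score over all libraries. With no filter only Tnnt1 of these was called, beside Myh3 and Myh8, and with a pseudocount of 0.1 Tnni1 was not. Without CM3 isotype 2 and 3, Tnnt1 (0.000537) and Tnni1 (0.0219) were still called, as was Myh1 (0.0321), but Eno3 (0.144) and Tnnc1 (0.136) were not. In CM3, Tnnt1 stood at 6.596, 3.19, 6.35, 5.42 and 3.70 FPKM in muDX400 tumours and at 7.85, 17.7, 21.7, 9.42 and 8.54 FPKM in isotype tumours. All 5 muDX400 tumours were below all 5 isotype tumours. The highest levels were in isotype 2 and 3, the libraries with raised FPKM totals. The log2 difference of Tnnt1 within CM3 was -1.14 ± 0.30 (SE, n = 5 each; limma, adjusted p = 0.179), and without isotype 4, the library with the most muscle RNA, it was -1.22 ± 0.32 (adjusted p = 0.0186). In the fit without isotype 4, 3942 genes were called in CM3, against 0 with all 10 libraries. Without isotype 2 and 3 the difference of Tnnt1 was -0.70 ± 0.21 (SE, n = 5 and 3; limma, adjusted p = 0.413).

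In MC38, Tnni1 stood at 3.59, 5.08, 4.66, 4.73 and 4.79 FPKM in muDX400 tumours, against 6.28, 5.69, 8.16, 4.603 and 5.88 FPKM in isotype tumours. Isotype 4 lay within the muDX400 range. The log2 difference was -0.34 ± 0.13 (SE, n = 5 each; limma, adjusted p = 0.0767), and without isotype 4 it was -0.42 ± 0.13 (adjusted p = 0.0366). Isotype 4 is singled out here by its own Tnni1 level, so that call is no test. Over the 10 fits that each left out 1 library, 1769 to 4159 genes in all were called in MC38. For the core genes the adjusted p of the same F test was 0.428 or higher.

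The second comparison set the 5 isotype tumours of a model against its 3 baseline tumours, which were untreated and have no day in the labels. In 9 models the arms also fall in separate blocks of sample numbers, so what the blocks stand for and the arm cannot be told apart there. In B16F10 and RENCA both arms share a block, but baseline libraries were deeper there, at 35.9 to 49.5 M fragments against 19.7 to 21.6 M for isotype in B16F10 and at 39.4 to 44.2 M against 16.4 to 18.8 M in RENCA. The part of depth was not tested. Between 3 and 17 members per model passed the filter of 1 FPKM in at least 3 of 8 libraries, and a member can pass it through the baseline tumours alone.

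As the mean over 11 models, 5 of 25 members tested fell, where 25.5% of the 16879 genes tested fell, and 0 of 25 rose, where 4.12% of all genes did. The share of members that fell was thus no higher than that of all genes. The 5 were Tnnt3 at -0.87 ± 0.33, Myl1 at -0.73 ± 0.27, Tnni2 at -0.69 ± 0.27, Neb at -0.28 ± 0.11 and Tnnc1 at -0.19 ± 0.07 on the log2 scale (SE; limma, adjusted p = 0.0351, 0.0302, 0.0411, 0.0493 and 0.0262). All 25 mean differences were negative, with a median of -0.21 against -0.06 for all genes. Over B16F10 and RENCA alone 0 of 25 were called, and Tnnc1 and Neb stood at 0.03 and 0.02. None of the 25 had an unadjusted p under 0.05 in that smaller contrast. Without the 5 libraries rich in muscle RNA 7 were called, the same 5 with Casq1 and Mylpf. Those libraries were left out for their muscle levels, and the share of all genes called in that fit is not given here. The 7 are thus a count only. Leaving out CT26, MB49 or TC1 left 0 called, leaving out MC38 left 1, and without CM3 the difference of Tnnc1 was -0.31. With median-ratio scaling 2 were called, Myl1 and Tnnt3, and without CM3 isotype 2 and 3 there were 2, Cacna1s and Tnnc1.

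Of the 46 other skeletal muscle genes, 27 were tested in that fit and none rose. Those that fell included Cox7a1 by 0.49, Des by 0.38 and Tmod4 by 0.24 (limma, adjusted p under the threshold). With median-ratio scaling Des was not called and Fbxo32, a muscle ubiquitin ligase, rose. In the other lists 3 of 8 skin genes, 2 of 4 heart genes, 1 of 7 smooth muscle genes and 1 of 3 myogenic genes fell, 1 myogenic gene rose, and none of 10 adipocyte or 6 nerve genes was called by limma or had an unadjusted p under 0.05. Within models the adipocyte genes went both ways. Of those tested, 9 of 9 rose in 4T1 and 7 of 9 in EMT6. In B16F10 and in LL2 8 of 9 fell, as did 1 of 9 in RENCA and 2 of 8 in TC1. With median-ratio scaling, in the mean over models, 1 heart gene fell and 1 nerve gene, Pmp22, rose. The skin gene with the largest fall was Krt14, at -0.60. The part of skin in the muscle values was not tested.

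**Figure D5:**
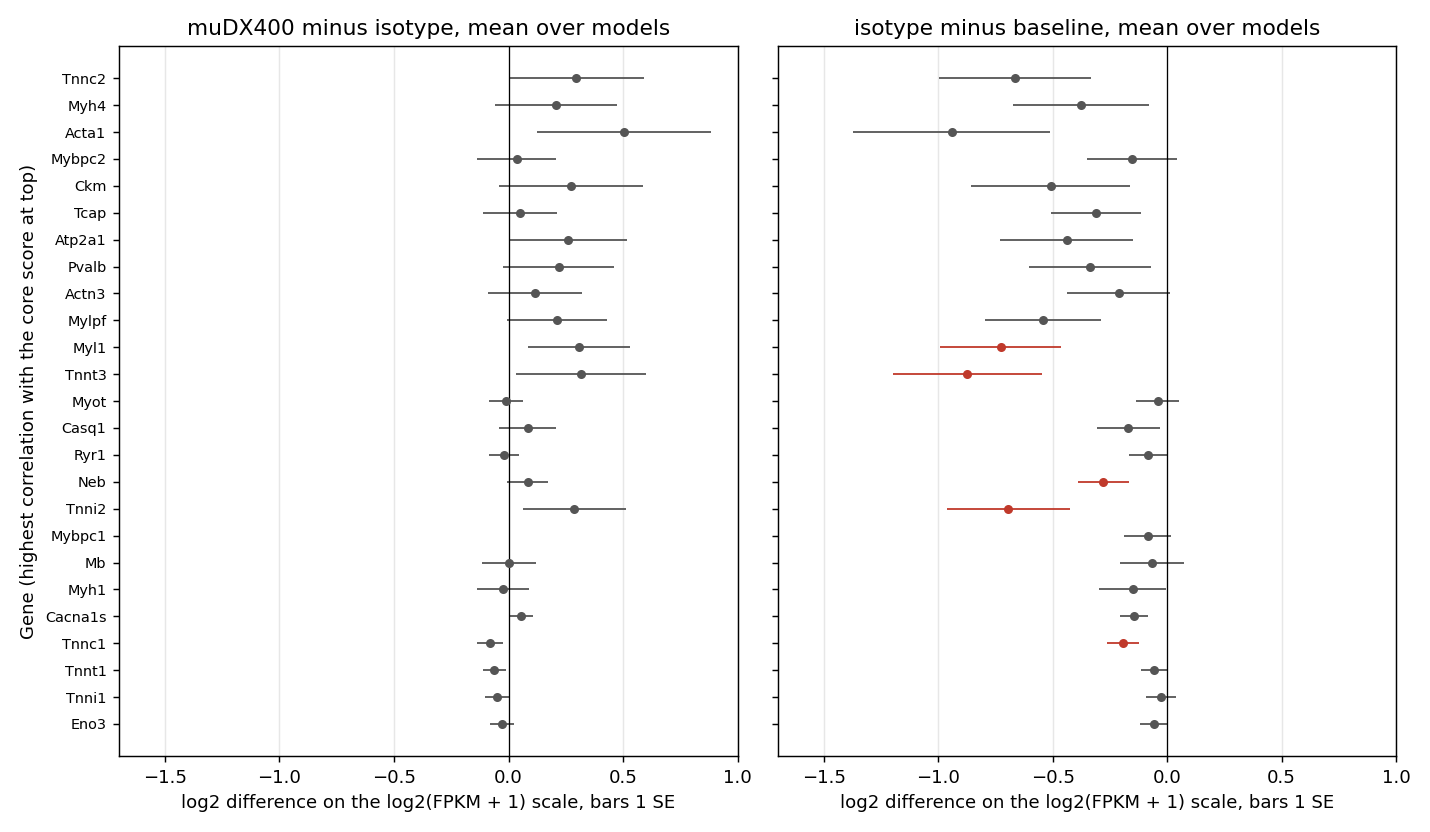
Mean over 11 models of the difference in log2(FPKM + 1), muDX400 minus isotype on the left (24 genes tested) and isotype minus baseline on the right (25 genes), with bars of 1 SE; red marks an adjusted p under 0.05 by limma. On the left no gene is called, and on the right all 25 points lie below 0 and 5 are called.

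Within models, CT26 gave a fall of Acta1, at low levels. Acta1 stood at 0.208, 0.185, 0.225, 0.312 and 1.70 FPKM in isotype tumours, against 3.21, 3.34 and 15.5 FPKM in baseline tumours. All 5 isotype tumours lay below all 3 baseline tumours. The log2 difference was -2.22 ± 0.45 (SE, n = 5 and 3; limma, adjusted p = 0.00713), and it was called without each library in turn. Tnnc1 also fell, by 0.47, so that 2 of 5 members tested fell in CT26, where 19.0% of all genes did. Tnnc1 was no longer called without any 1 of the other 7 libraries (adjusted p = 0.0533 to 0.118) but was without isotype 4.

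In MB49, 1 of 8 members tested fell, Mylpf, the fast regulatory light chain, where 1.67% of all genes fell. Mylpf stood at 1.60, 1.86, 2.11, 2.25 and 1.27 FPKM in isotype tumours, against 9.62, 9.48 and 3.02 FPKM in baseline tumours. Its log2 difference was -1.45 ± 0.30 (SE, n = 5 and 3; limma, adjusted p = 0.0497). It was not called with a pseudocount of 0.1, no filter, median-ratio scaling or the replicate block. Acta1 was at 0.287, 0.615, 0.767, 1.10 and 0.239 FPKM in isotype tumours and at 30.1, 23.3 and 1.47 FPKM in baseline tumours (log2 difference -2.97 ± 0.71, adjusted p = 0.0847). Baseline 3 lay far below the other baseline tumours for both. Without it 4 members were called, and without any other single library none was. Baseline 3 is singled out here by its low muscle levels, so those 4 calls are no test. Over the 8 fits that each left out 1 library, 100 to 238 genes in all were called.

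In 4T1, 3 of 14 members tested fell, where 10.7% of all genes did. Tnni2 stood at 28.1, 32.5, 30.8, 39.9 and 33.4 FPKM in isotype tumours, against 82.3, 72.6 and 59.6 FPKM in baseline tumours. The groups did not overlap, and the log2 difference was -1.09 ± 0.13 (SE, n = 5 and 3; limma, adjusted p = 0.000629). Acta1, in the same libraries, was at 0.0874, 0.349, 5.90, 73.2 and 21.4 FPKM in isotype tumours and at 6.49, 0.693 and 0.196 FPKM in baseline tumours, so the order of Tnni2 was not that of Acta1. Tnnc1 fell by 1.00 and Eno3 by 0.31. Tnni2 was called in all 12 alternative fits. Tnnc1 was not called without baseline 1 or 2, with no filter or with the replicate block, and Eno3 was called in 3 of the 12 fits.

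In TC1, 2 of 17 members tested fell, Myl1 and Neb, where 27.1% of all genes did. Myl1, the alkali light chain of fast fibres, stood at 0.0602, 0.0614, 1.75, 1.47 and 0.119 FPKM in isotype tumours, against 0.0887, 33.8 and 29.6 FPKM in baseline tumours. Baseline 2 and 3 were high and baseline 1 was among the lowest. The log2 difference was -2.77 ± 0.96 for Myl1 and -1.45 ± 0.42 for Neb (SE, n = 5 and 3; limma, adjusted p = 0.0427 and 0.0195). Without baseline 1 there were 16 of 17 members called, where 25.5% of all genes were, without baseline 2 or 3 none, and without isotype 1, 2, 4 or 5 only Neb, and without isotype 3 Myl1 and Actn3. Leaving out baseline 1 keeps only the baseline libraries rich in muscle RNA, through which members can also pass the filter. The count of 16 is thus no test of these members. With no filter neither Myl1 nor Neb was called, but Cacna1s and Tnnc1 were. Without baseline 2 and 3 together, the libraries richest in muscle RNA, 4 members passed the filter, against 17 with all libraries. There the log2 difference of Eno3 was 0.57 (n = 5 and 1). That fit takes the lone baseline library to vary like the others, so no calls are given. The baseline libraries of TC1 were also deeper, at 36.7 to 39.4 M fragments against 18.0 to 20.7 M in its isotype libraries, and the part of depth was not tested.

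In MBT2, 1 of 14 members tested fell, Tnnc1 by 0.53 (limma, adjusted p = 0.0437), where 11.8% of all genes did. Without baseline 2 there were 2 called and without any other single library 0. No member was called in B16F10, CM3, EMT6, LL2, MC38 or RENCA. In the first 5 of these limma called 0.933%, 0.374%, 10.6%, 27.1% and 3.25% of all genes, and in RENCA 8.25% fell and 1.76% rose. At an unadjusted p under 0.05 there were 3 of 7 members in MC38, where 17.2% of all genes were, 1 of 3 in EMT6 (28.5%) and 0 in the other 4 (6.11% to 40.6%).

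In MC38 the baseline tumours split as in MB49. Acta1 stood at 0.0653, 0.0296, 0.0544, 0 and 0.0873 FPKM in isotype tumours, against 36.7, 17.2 and 0.345 FPKM in baseline tumours. Without baseline 3 there were 2 members called, Mylpf at -2.93 ± 0.28 and Tnni2 at -2.33 ± 0.28 (SE, n = 5 and 2; limma, adjusted p = 0.00350 and 0.0108). Baseline 3 is singled out here by its low Acta1, so those 2 calls are no test. Over the 8 fits that each left out 1 library, 99 to 719 genes in all were called. In RENCA, Myl1 stood at 0.844, 2.995, 35.0, 1.62 and 1.07 FPKM in isotype tumours and at 9.26, 14.03 and 7.21 FPKM in baseline tumours. Isotype 3 was the only isotype tumour above the baseline ones. Without it the log2 difference of Myl1 was -2.11 ± 0.32 (SE, n = 4 and 3), and Myl1 alone was called. Isotype 3 was left out for its high muscle level, so that call is no test.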

How the data were processed

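Tumours were frozen and total RNA was made into stranded, ribosome-depleted libraries read as 50 base pairs of ends, per the labels' protocols. The authors deposited FPKM values for 54232 gene identifiers in 143 libraries. How reads were aligned and quantified, on which genome build, is not given in the sources used here. The labels do not say that each library came from a separate animal, so p-values measure only the spread between these samples, which may be technical.

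Gene positions come from a GENCODE annotation of GRCm38 matched by Ensembl identifier, and promoters from a RefSeq table of GRCm38.p6. Depth was estimated from the FPKM worth of a single fragment. Tests used limma (3.58.1, R 4.3.3), 2-sided and with a trend on mean level, on log2(FPKM + 1), a scale that understates changes of low genes. Log2 differences are on that scale. The core genes, the libraries' tiers and the genes named follow a written rule: all members named, the core in full, and those past the threshold in each comparison. The members and lists were chosen with earlier results of these data known. Fits were tested on simulated data. Alternatives were a pseudocount of 0.1, no filter, median-ratio scaling (each library divided by its median ratio to the geometric mean library), a replicate block and leaving out libraries or models. Leaving out the 2 libraries with FPKM totals over 700000 was chosen after seeing the data. Same-numbered libraries deviated together in every pair (correlations over 0.1) in 1 of 22 comparisons, EMT6 isotype against baseline, where the block changed no member's call. Tables, correlations and figures used Python 3.11.15 with pandas 2.3.3.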

Additional observations from a re-analysis of the deposited data

Results flagged for a closer look

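In 10 of 22 groups of 5 libraries, the core score of 1 library stood apart from the other 4, with a gap to its nearest neighbour above 0.71 of the group's range. The cutoff of 0.71 is made for 5 values of a normal spread. Core scores crowd at low values with a few high ones, so how often the rule would mark such a group by chance is not known. In the muDX400 arm these were B16F10 replicate 4 with a score of 2.93, CT26 replicate 1 with 0.922, EMT6 replicate 4 with 3.23, MB49 replicate 5 with 4.74, MBT2 replicate 1 with 2.24 and RENCA replicate 5 with 4.83. In the isotype arm they were B16F10 replicate 4 with 1.72, CM3 replicate 4 with 7.23, CT26 replicate 5 with 0.981 and RENCA replicate 3 with 6.6. Each of the 10 was the highest of its group. The 11 baseline groups of 3 were too small for this rule.

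The muDX400 difference was not the same in all models for 4 of the 24 members tested, by the F test of the difference itself in limma. The same test called 32.4% of all genes, so the share of members was no higher than that of all genes. The adjusted p was 4.54e-06 for Tnnt1, 0.0326 for Eno3, 0.0406 for Tnni1 and 0.0451 for Tnnc1. With no filter only Tnnt1 of these was called, with a pseudocount of 0.1 Tnni1 was not, and without CM3 isotype 2 and 3 Eno3 and Tnnc1 were not. On the log2 scale, the muDX400 minus isotype difference of Tnnt1 was -1.14 in CM3, -0.30 in TC1, 0.01 in B16F10 and 0.23 in MB49, the models in which it was tested alone.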

How the results depend on the processing

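The number of libraries with every core gene at 1 or 10 FPKM was 31 and 5 under median-ratio scaling too, and core scores ranked alike under the other settings (Spearman 0.887 to 0.992). For muDX400 against isotype no planned setting with all libraries changed the count of 0 members in any of 11 models or in their mean. Without the 5 libraries with every core gene at 10 FPKM or more, the count became 1 in CM3 and 1 in the mean over models. Those libraries were left out for their muscle levels, so a call there of a member that follows the core score is no test. Leaving out single libraries gave 0 to 1 in CM3 and 0 to 1 in MC38. For isotype against baseline the counts moved. In 4T1 (3) it became 1 with no filter, 2 with median-ratio scaling, and 1 to 3 without single libraries. In CT26 (2) it became 1 with a pseudocount of 0.1, 1 with median-ratio scaling, 5 with no filter, and 1 to 2 without single libraries. In LL2 (0) it became 2 with no filter. In MB49 (1) it became 0 with a pseudocount of 0.1, with no filter and with median-ratio scaling, and 0 to 4 without single libraries. In MBT2 (1) it became 0 with no filter and with median-ratio scaling, and 0 to 2 without single libraries. In MC38 (0) it was 0 to 2 without single libraries. In RENCA (0) it became 1 without the 5 libraries and 0 to 1 without single ones. In TC1 (2) it became 1 with a pseudocount of 0.1 and 0 to 16 without single libraries. Without the 5 libraries TC1 keeps a lone baseline library, so no count is given for that fit. With no filter the 2 in TC1 were other members. In the mean over models (5) it became 8 with a pseudocount of 0.1, 2 with no filter, 2 with median-ratio scaling, 7 without the 5 libraries, 2 without CM3 isotype 2 and 3, 0 over B16F10 and RENCA only and 0 to 6 without single models. Over those 2 models Tnnc1 and Neb turned to 0.0334 and 0.0207. Median-ratio scaling moved the median of all genes by over 0.1 on the log2 scale in CM3 (both comparisons) and in RENCA, CT26 and TC1 (isotype against baseline), most in RENCA, where it was 0.02 after scaling and -0.17 before. The F test's 4 calls became 3 with a pseudocount of 0.1, with no filter and without CM3 isotype 2 and 3. These are counts of members alone, and the number of all genes called moved too. For isotype against baseline it ran from 3246 to 4867 in TC1 without single libraries. In the mean it ran from 4007 to 5368 without single models. The cause of these changes was not tested. Low depth limits members near 0 FPKM.

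With the replicate number as a block, the isotype against baseline count was 1 in 4T1, 1 in CT26, 1 in LL2, 0 in MB49, 4 in TC1 and 9 in the mean over models. The block changed no count for muDX400 against isotype. Apart from EMT6 isotype against baseline, samples shared only a number, with correlations of same-numbered libraries from -0.622 to 0.554.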

Other observations

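The number of genes called in a whole comparison moved when some single libraries were left out, whether rich in muscle RNA or not. In CM3, limma called 0 genes between muDX400 and isotype tumours with all 10 libraries and 3942 without isotype 4. Without muDX400 3, also rich in muscle RNA, it called 0. For isotype against baseline in TC1 it called 4832 with all libraries. It called 3611 and 3533 there without baseline 2 and 3, which were rich in muscle RNA, and 3246 without baseline 1, which was not. Between muDX400 and isotype tumours of RENCA it called 325 with all libraries and 150 without isotype 3. It also called 95 without muDX400 1 and 758 without muDX400 3, neither of which was rich in muscle RNA. In MBT2 it called 0 with all libraries and 2595 without muDX400 3, whose core score was among the low ones.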
